A study of Mus musculus with 20 samples.

Results

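The immunoglobulin V segments are the germline gene pieces that encode most of the antigen-binding part of an antibody chain. Of the 54309 gene rows measured, 348 carried a mouse symbol beginning with Ighv, Igkv or Iglv, and the 105 of these whose counts summed to 10 or more over the 20 libraries were taken as the members. The members were thus chosen by their own counts, so that their presence is a description and not a result. They comprised 43 heavy chain segments, 60 kappa segments and 2 lambda segments. Of the 243 V rows left out, 159 had no count in any library.

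RNA was measured in bulk from tumors of SCCVII, a mouse squamous cell carcinoma line used as a model of head and neck cancer, grown under the skin of immunocompetent C3H/HeOuJ mice. Each of 10 treatment groups had 2 libraries, A and B. The first 8 groups were every combination of APG-157, a drug made from the turmeric plant and given in the chow, with 2 antibodies injected against checkpoints on T cells, anti-PD-1 and anti-CTLA-4. They were control, each agent alone, the drug with 1 antibody (APG-157 + anti-PD-1, and likewise APG-157 + anti-CTLA-4), both antibodies without the drug (anti-PD-1 + anti-CTLA-4, here dual blockade), and all 3 agents together (here the triple combination). The last groups were anti-CD8, an antibody that depletes CD8 T cells, and APG-157 with anti-CTLA-4 under anti-CD8 (here the CD8-depleted combination). Per the study's methods the CD8 depletion was a mouse experiment of its own, so experiment and depletion cannot be told apart where those groups are set against the rest. That experiment also had a control group and an APG-157 + anti-CTLA-4 group. The labels do not say which experiment the control and APG-157 + anti-CTLA-4 libraries came from, so comparisons with them may cross experiments. The labels do not state that A and B came from separate tumors, so a p-value measures only the spread between these libraries.

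Developing B cells join 1 V segment to D and J segments in the heavy chain locus, and 1 V segment to a J segment in the kappa or lambda locus, and each B cell then transcribes the joined product. Plasma cells, the antibody-secreting descendants of B cells, hold far more of this transcript than resting B cells. A few expanded clones of plasma cells can therefore supply most of the V segment reads of a tissue, and in bulk RNA fewer cells of a type and less RNA per cell cannot be told apart. Neither can 1 clone and several clones that use the same V segment.

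The libraries held from 43.9 to 72.1 counts in units of 1e6, of which very few fell on V segments, 4378 in all 20 libraries together, with 30 to 883 in a library, a median of 142 and 8 libraries under 100. Kappa segments took 2696 of these counts, heavy segments 1524 and lambda segments 158, and kappa exceeded heavy in 20 of 20 libraries. Library B of the CD8-depleted combination stood apart from the rest, with 355 counts per 1e6 counts (CPM) of the adipocyte gene Adipoq, against 0.521 in library A of that group and at most 3.03 in any other. The A and B libraries of APG-157 + anti-CTLA-4 were the most alike of the 10 pairs over all genes, with a chi-square per degree of freedom of 10.1 against 48.4 to 618 in the other pairs. They differed by more than sampling noise, which does not show that they came from separate tumors, and were kept as 2 libraries. For this group the paper mentions a single small tumor for flow cytometry and staining, and a single small tumor for a western blot. It does not say which tumors gave the RNA.

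The members lie in 3 clusters in the mouse genome build GRCm38. The heavy segments lie between chr12:113588267-115981134, the kappa segments between chr6:67555497-70704177 and the lambda segments between chr16:19085017-19260859. The annotation marks 102 members as functional V genes and 3 as V pseudogenes, Ighv1-14, Ighv1-62 and Ighv1-33, which held 140 of the counts. Of the 216 V genes annotated as functional 102 reached the 10-count minimum, and of the 130 annotated pseudogenes 3 did. The reference is of the C57BL/6J strain, and the C3H mice carry other alleles of many of these segments, so the assignment of reads to single segments is uncertain. At the minimum, Ighv1-15 with 9.63 and Igkv6-29 with 9.48 estimated counts stayed out, while Igkv4-50, Igkv8-16 and Ighv3-1 entered with 10 each.

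Most members were thin. A member's summed count ran from 10 to 273 with a median of 27, and a member had a count in 1 to 18 libraries with a median of 7. The library with most counts of a member held between 13.9% and 100% of them, with a median of 35.7%, and 16 members had over 50% of their counts in 1 library. Igkv4-90 was the extreme, with its 11 counts all in library A of the triple combination. The highest library was dual blockade B for 26 members and dual blockade A for 16. The 10 segments with most counts were Igkv3-2 (273), Igkv10-96 (231), Igkv1-117 (206), Ighv7-3 (194), Igkv1-110 (189), Igkv1-135 (147), Igkv3-7 (124), Iglv1 (106), Ighv1-82 (88) and Ighv1-14 (78). The segments differed in which libraries held their counts, as the heat map of counts shows.

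**Figure D1:**
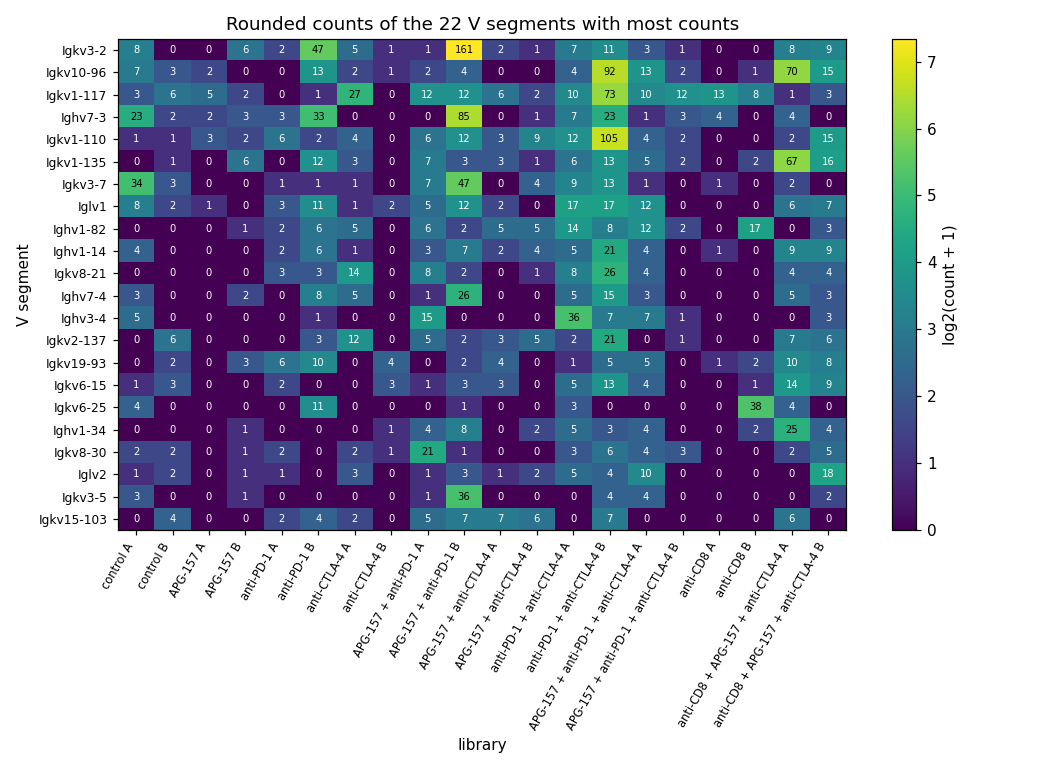
Rounded counts of the 22 V segments with most counts (rows) in the 20 libraries (columns), with the color giving log2(count + 1). Some segments have most of their counts in 1 library, such as Igkv3-2 with 161 counts in library B of APG-157 + anti-PD-1, or Igkv6-25 with 38 in library B of anti-CD8, while others are spread out, such as Iglv1 with at most 17 counts in a library and counts in 15 libraries.

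The summed V segment level was highest in both libraries of dual blockade. Libraries A and B of that group held 10.2 and 15.3 CPM, against 3.09 and 1.28 in control, a mean of 12.8 ± 3.57 against 2.19 ± 1.28 CPM (SD, n = 2). The ratio of the means was 5.84, and the pairs did not overlap. In library B of that group the counts came to 883, the most of any library.

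APG-157 + anti-PD-1 had 4.03 and 9.96 CPM and the CD8-depleted combination had 5.58 and 6.83, and in both groups both libraries lay above both control libraries. Anti-PD-1 alone had 1.50 and 5.28, anti-CTLA-4 alone 4.18 and 0.586, and the triple combination 4.55 and 1.14. In each of these 3 groups the A and B libraries differed by more than 3-fold and overlapped the range of control. The lowest levels were in APG-157 alone, with 0.538 and 0.844 CPM, and in anti-CD8 alone, with 0.825 and 1.17, where both libraries lay below both control libraries. APG-157 + anti-CTLA-4 lay between, at 1.65 and 1.99 CPM, inside the control range.

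**Figure D2:**
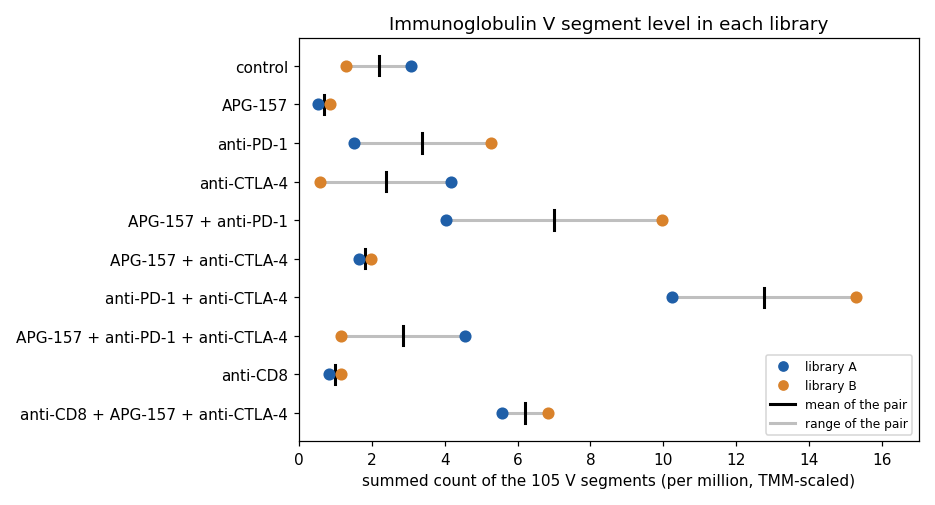
Summed level of the 105 V segments in CPM (x axis) in the A and B libraries of the 10 groups (y axis), with the range and mean of each pair. Both dual blockade libraries, at 10.2 and 15.3, lie above the libraries of every other group.

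By agent, the 8 libraries with anti-PD-1 among the first 8 groups had a median of 4.91 CPM (1.14 to 15.3), and the 8 without it a median of 1.47 CPM (0.538 to 4.18). Of the 8 given anti-PD-1, 5 lay above the highest of those not given it. The medians were 3.09 with and 2.29 without anti-CTLA-4, and 1.82 with and 3.64 without APG-157, and in both cases the ranges overlapped widely.

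The leading segment took between 5.57% and 43.7% of a library's V counts, with a median of 12.3%. There were 13 different leaders over the 20 libraries when the first of any tied segments was counted. Kappa segments led in 18 libraries, the heavy segment Ighv3-4 in 1 and the lambda segment Iglv2 in 1. APG-157 + anti-CTLA-4 was the 1 group whose A and B libraries had the same leader, Igkv4-72, and it is also the pair that was most alike over all genes. The plot of shares per library shows which segments the counts fell on.

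**Figure D3:**
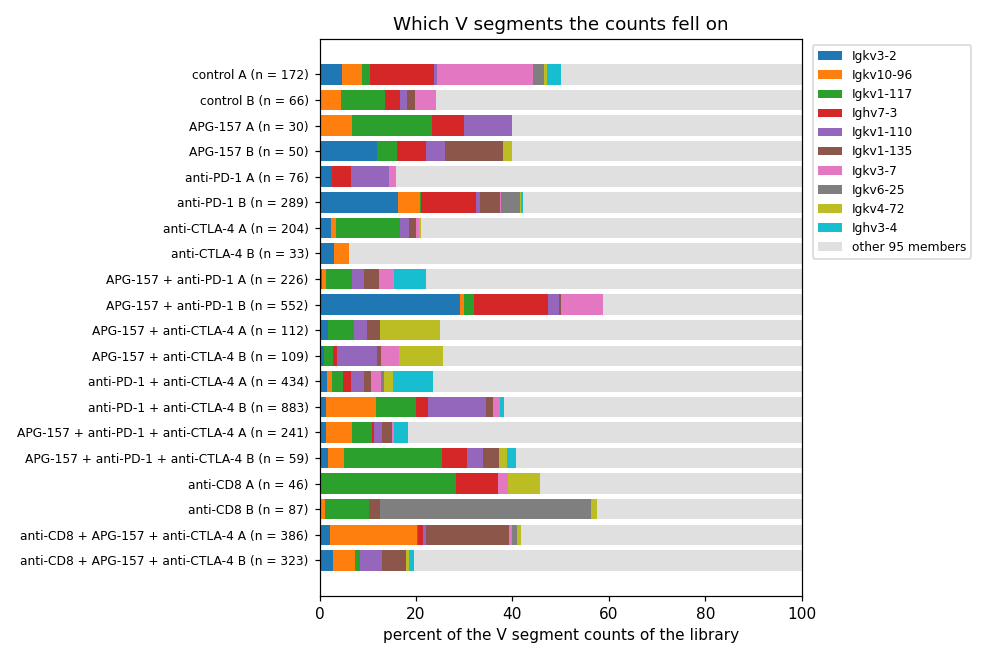
Percent of each library's V segment counts (x axis) on 10 named segments and on the other 95 members, for the 20 libraries (y axis), with the number of V counts in brackets. Igkv6-25 takes 43.7% in library B of anti-CD8 and Igkv3-2 takes 29.2% in library B of APG-157 + anti-PD-1, while the leader of library B of the CD8-depleted combination takes 5.57%.

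The germline ends of the leading segments are shown because they set where the V-encoded part of the third hypervariable loop begins, the stretch in which rearranged chains differ most. Each line gives the last 60 coding bases of the reference segment, 5′ to 3′ in the direction of the gene, read from the GENCODE M21 annotation of GRCm38. Capitals mark the codon of the conserved cysteine that opens the loop. The segments lie at chr6:70698758-70699067 (Igkv3-2, + strand), chr6:68631963-68632260 (Igkv10-96, - strand), chr6:67610196-67610508 (Igkv1-135, + strand), chr6:68270955-68271267 (Igkv1-110, + strand), chr6:68121515-68121827 (Igkv1-117, + strand), chr6:70215660-70215957 (Igkv6-25, + strand), chr6:69226854-69227156 (Igkv4-72, - strand), chr12:114153180-114153494 (Ighv7-3, - strand), chr12:115952538-115952842 (Ighv1-82, - strand) and chr12:114253617-114253926 (Ighv3-4, - strand).
Igkv3-2: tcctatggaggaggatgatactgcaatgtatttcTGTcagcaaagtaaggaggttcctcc
Igkv10-96: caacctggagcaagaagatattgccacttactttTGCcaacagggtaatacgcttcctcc
Igkv1-135: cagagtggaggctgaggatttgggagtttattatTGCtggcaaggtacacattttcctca
Igkv1-110: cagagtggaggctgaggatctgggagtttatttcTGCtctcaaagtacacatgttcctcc
Igkv1-117: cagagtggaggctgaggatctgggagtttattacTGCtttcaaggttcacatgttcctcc
Igkv6-25: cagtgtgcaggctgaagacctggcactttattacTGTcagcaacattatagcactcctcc
Igkv4-72: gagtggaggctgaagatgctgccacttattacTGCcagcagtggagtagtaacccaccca
Ighv7-3: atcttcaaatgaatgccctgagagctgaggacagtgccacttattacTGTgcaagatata
Ighv1-82: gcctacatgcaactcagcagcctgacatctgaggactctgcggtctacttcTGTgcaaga
Ighv3-4: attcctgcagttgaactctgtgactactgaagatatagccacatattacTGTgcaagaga

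After the cysteine codon 23 bases remained in 6 of these 7 kappa segments and 25 in Igkv4-72, against 10, 6 and 8 in the heavy segments Ighv7-3, Ighv1-82 and Ighv3-4. The heavy chain loop takes its further bases from D and J segments and from bases added at the joints.

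Library B of anti-PD-1 shared a pair of segments with library B of APG-157 + anti-PD-1. Igkv3-2 had 161 counts in library B of APG-157 + anti-PD-1, 47 in library B of anti-PD-1 and 0 to 11 in the other 18 libraries. Its share of the V counts was 29.2% (Wilson 95% interval 25.5% to 33.1%) and 16.3% (12.5% to 21%) in those libraries. Ighv7-3 was the leading heavy segment of the same libraries, with 85 and 33 counts, which were 42.5% and 33.0% of their heavy counts. Elsewhere Ighv7-3 had 23 counts in control A and in dual blockade B and at most 7 in any other library. Each interval covers counting error only.

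The partner libraries had few counts of the pair. Library A of APG-157 + anti-PD-1 had 1 count of Igkv3-2 and 0 of Ighv7-3 among 226 V counts, and library A of anti-PD-1 had 2 and 3 among 76, where the 3 of Ighv7-3 tied for the most of any heavy segment. By the Morisita-Horn index, which is 1 for the same mix of segments and 0 for no shared segment, the B libraries of anti-PD-1 and APG-157 + anti-PD-1 were the most alike of all 190 pairs of libraries, at 0.745. A thin pair of unlike groups came next at 0.723, library B of the triple combination and library A of anti-CD8. These had 59 and 46 V counts and were both led by Igkv1-117. Within APG-157 + anti-PD-1, libraries A and B reached 0.118.

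Library B of APG-157 + anti-PD-1 also held the most counts of near relatives of these segments: 47 of Igkv3-7, 36 of Igkv3-5 and 26 of Ighv7-4. The Igkv3 family came to 44.6% of its V counts and the Ighv7 family to 20.1%. In anti-PD-1 B these families came to 21.5% and 14.2%. By family the pattern was not particular to these B libraries, since control A had 26.7% and 15.1%. APG-157 B had 20% and 10%, among 50 V counts. Along the V exon Igkv3-7 and Igkv3-5 were 86.8% and 90.6% identical to Igkv3-2, and Ighv7-4 was 94.3% identical to Ighv7-3. Reads of stretches that are alike can be split among segments by the counting. C3H alleles are not in the reference either, so the split within each family is uncertain. The first 300 coding bases of the V exons are shown to make that likeness visible. Capitals in Igkv3-7 and Igkv3-5 mark bases that differ from Igkv3-2, and those in Ighv7-4 mark bases that differ from Ighv7-3. Igkv3-7 lies at chr6:70607727-70608036 and Igkv3-5 at chr6:70663586-70663895, both on the + strand, and Ighv7-4 at chr12:114222788-114223104 on the - strand.
Igkv3-2: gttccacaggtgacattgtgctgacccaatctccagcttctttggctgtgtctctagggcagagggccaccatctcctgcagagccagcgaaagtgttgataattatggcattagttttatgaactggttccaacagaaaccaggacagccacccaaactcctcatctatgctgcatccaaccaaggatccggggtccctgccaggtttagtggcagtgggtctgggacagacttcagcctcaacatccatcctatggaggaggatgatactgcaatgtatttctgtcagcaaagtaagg
Igkv3-7: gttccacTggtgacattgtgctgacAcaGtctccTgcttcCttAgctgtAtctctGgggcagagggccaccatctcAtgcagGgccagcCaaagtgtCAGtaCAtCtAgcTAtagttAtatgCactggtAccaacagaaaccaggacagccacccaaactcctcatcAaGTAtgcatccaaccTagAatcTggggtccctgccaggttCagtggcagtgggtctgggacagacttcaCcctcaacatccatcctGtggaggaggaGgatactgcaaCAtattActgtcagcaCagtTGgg
Igkv3-5: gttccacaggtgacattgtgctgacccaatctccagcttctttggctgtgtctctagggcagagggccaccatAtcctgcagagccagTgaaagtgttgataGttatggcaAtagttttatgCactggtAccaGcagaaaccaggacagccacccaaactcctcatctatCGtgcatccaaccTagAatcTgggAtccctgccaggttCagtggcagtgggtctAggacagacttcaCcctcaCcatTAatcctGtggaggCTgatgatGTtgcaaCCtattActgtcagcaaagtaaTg
Ighv7-3: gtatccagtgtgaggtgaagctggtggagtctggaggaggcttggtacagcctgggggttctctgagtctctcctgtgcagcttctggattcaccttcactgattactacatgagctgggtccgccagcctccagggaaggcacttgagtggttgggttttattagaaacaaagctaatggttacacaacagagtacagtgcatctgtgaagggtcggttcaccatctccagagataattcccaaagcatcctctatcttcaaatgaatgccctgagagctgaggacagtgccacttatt
Ighv7-4: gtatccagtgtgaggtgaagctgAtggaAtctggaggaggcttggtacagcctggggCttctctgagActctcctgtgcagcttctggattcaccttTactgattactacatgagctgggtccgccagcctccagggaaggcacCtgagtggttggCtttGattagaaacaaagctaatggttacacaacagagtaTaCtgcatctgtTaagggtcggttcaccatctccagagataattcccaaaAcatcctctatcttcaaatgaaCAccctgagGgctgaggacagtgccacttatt

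Igkv3-7 differed from Igkv3-2 at 40 of these 300 bases and Igkv3-5 at 28, and Ighv7-4 differed from Ighv7-3 at 15. Over all 105 members the nearest other member had a median identity of 94.4% along the V exon (73.8% to 98.7%), and 81 members had another member at 90% or more. The pair Igkv1-110 and Igkv1-117 stood at 96.8%, Igkv10-96 and Igkv10-94 at 94.6%, and Iglv1 and Iglv2 at 97.0%. Igkv3-7 led the V counts of control A, with 34 of 172, where Igkv3-2 had 8. Control B had 3 counts of Igkv3-7 and 0 of Igkv3-2.

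Other libraries were led by other segments. In library B of anti-CD8, Igkv6-25 had 38 of 87 counts, which was 43.7% (33.7% to 54.1%), and the heavy segment Ighv1-82 had 17, which was 19.5% (12.6% to 29.1%). Library A of the same group had 0 counts of both. In library A of the CD8-depleted combination, Igkv10-96 had 70 and Igkv1-135 had 67 of 254 kappa counts, while library B had 15 and 16 of 193. Library B of dual blockade had 105 counts of Igkv1-110, 92 of Igkv10-96 and 73 of Igkv1-117, against 12, 4 and 10 in library A, whose leader was Ighv3-4 with 36 counts. Igkv4-72 had 14 and 10 counts in APG-157 + anti-CTLA-4 and 0 to 8 in the other libraries.

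At the same number of counts, the libraries with 1 or 2 strong leaders held fewer segments. That number is computed from the same shares as the leader's, so the relation is built in and is not a separate observation. The expected number of segments among 30 V counts ran from 9.64 to 22.4 with a median of 20.2. It was 9.64 in anti-CD8 B and 13.9 in APG-157 + anti-PD-1 B, and 22.4 and 20.2 in dual blockade A and B, which had 434 and 883 V counts. The effective number of segments, the inverse of the summed squared shares, was 4.07 in anti-CD8 B and 36.8 in library A of the triple combination. Without fixing the number of counts, 18 to 85 segments were detected in a library, in rough order of its V counts.

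**Figure D4:**
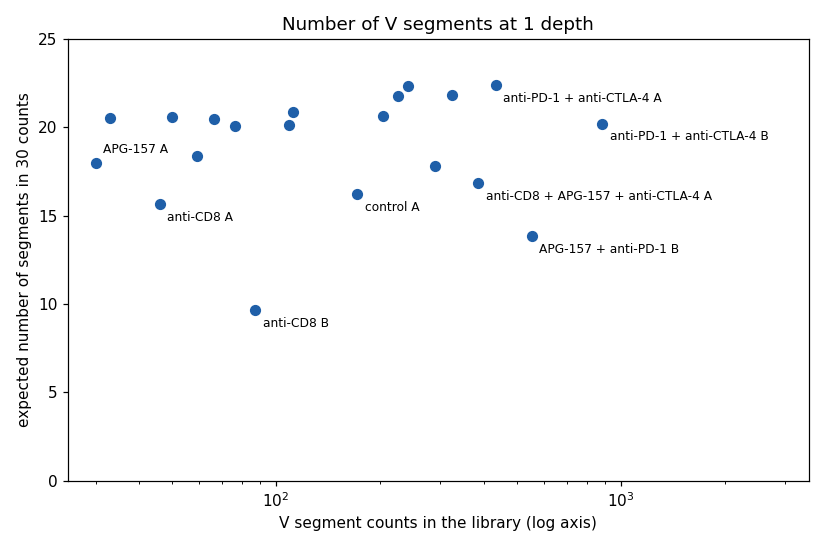
Expected number of V segments among 30 counts (y axis) against the number of V segment counts of each of the 20 libraries (x axis, log scale). Most libraries lie near 20, library B of anti-CD8 lies at 9.64 and library B of APG-157 + anti-PD-1 at 13.9, and the V counts alone do not order the libraries.

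Libraries of 1 group did not share their segments much more than libraries of different groups did. The Morisita-Horn index had a median of 0.356 over the 10 same-group pairs (0.0984 to 0.677) and 0.267 over the 180 other pairs (0.0243 to 0.745), with no test made of the difference. The highest same-group value, 0.677, was that of APG-157 + anti-CTLA-4, and the lowest, 0.0984, that of anti-CTLA-4, whose B library had only 33 V counts.

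Segment by segment, tests could be made for 22 of the 105 members, those that passed the count minimum of the fit over 19567 genes. The median biological coefficient of variation was 101% over the 22 members and 25.5% over all genes tested. In edgeR's quasi-likelihood test, where a call needs a log2 fold change beyond 2 and an adjusted p under 0.05, 1 member passed in 1 of 14 comparisons and 0 in the other 13. The calls over all genes were 0.0153% in APG-157 + anti-CTLA-4, 0.0102% in the CD8-depleted combination, each against control, 0.00511% in APG-157 + anti-CTLA-4 against anti-CTLA-4, 0.0204% for anti-CTLA-4 over the first 8 groups, and 0 in the other comparisons without a member called. DESeq2 called the same member and 0 others, but gave no adjusted p to any of the 22 in 4 comparisons.

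The call was Igkv10-96 in APG-157 + anti-CTLA-4 against the CD8-depleted combination, where 6.89% of all genes tested were called by edgeR and 9.9% by DESeq2. Igkv10-96 had 0 of 112 and 0 of 109 V counts in APG-157 + anti-CTLA-4, which allows a share of up to 2.68% and 2.75%, and 70 and 15 counts in the CD8-depleted combination. A count of 0 was not particular to APG-157 + anti-CTLA-4, since APG-157 B, anti-PD-1 A and anti-CD8 A also had 0. Control had 7 and 3 counts. The 2 groups compared did not overlap. The level was at least 29.9-fold lower in APG-157 + anti-CTLA-4 when a floor of 3 counts was set over the group (edgeR adjusted p = 0.0364). The fitted log2 fold change was -8.23 (SE 2.36), and -8.29 with the APG-157 + anti-CTLA-4 pair summed to 1 library. Both depend on the prior count. The call counts that pair as 2 replicates, which the labels do not state. Without library A of the CD8-depleted combination the comparison gave 3 calls, and it gave 0 without its library B or without either APG-157 + anti-CTLA-4 library. Adipoq was at 0 and 0.0183 CPM in APG-157 + anti-CTLA-4 and at 0.521 and 355 in the depleted group, and 6 of 6 adipocyte markers were called lower, as were 3 of 4 epidermis markers and 2 of 4 markers of epithelium. Krt14 and Krt5, keratins of the basal epidermis, had 2 and 0 and 0 and 0 counts in APG-157 + anti-CTLA-4 but 449 and 482 in library A of the depleted group, the library with the 70 counts of Igkv10-96, and 13 and 35 in its library B. Epcam, of epithelia, had 10310 counts in that library B against 42 in A, and Ccl21a, a chemokine of lymphoid organs, 2879 against 9. Markers of other tissues thus moved with this comparison in both depleted libraries, and their part in the result was not tested.

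At an unadjusted p under 0.05 in edgeR, the members numbered 2 in APG-157 (0.761% of all genes), 1 in anti-PD-1 (0.618%), 2 in anti-CTLA-4 (6.45%), 1 in APG-157 + anti-PD-1 (2.43%), 1 in APG-157 + anti-CTLA-4 (11.1%), 5 in dual blockade (6.04%), 2 in the triple combination (4.48%), 4 in anti-CD8 (1.19%) and 3 in the CD8-depleted combination (19.1%), each of 22 and against control. They numbered 1 (23.6%) in APG-157 + anti-CTLA-4 against anti-CTLA-4 and 3 (38.3%) against the CD8-depleted combination. All 5 in dual blockade were higher (4.22% of all genes were so). Leaving out a library took the 5 to between 2 (without control B) and 8 (without either dual blockade library), with 41 to 52 members tested.

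Against control, the named members had the lowest adjusted p in each comparison but did not pass. In dual blockade, Igkv1-110 had 12 and 105 counts against 1 and 1, a ratio of 62.6 (exact 95% counting interval 16.9 to 523), with an edgeR adjusted p of 0.730. In the CD8-depleted combination, Igkv1-135 had 67 and 16 counts against 0 and 1, a ratio of 76.4 (13.3 to 3053), with an edgeR adjusted p of 0.152. Igkv4-72 in APG-157 + anti-CTLA-4, with 14 and 10 counts against 1 and 0, had a ratio of 21 (3.42 to 862) and an edgeR adjusted p of 0.422. These pairs did not overlap, yet no adjusted p reached the threshold.

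Igkv3-2 in APG-157 + anti-PD-1 had 1 and 161 counts against 8 and 0 in control, so the pairs overlapped, and its log2 fold change of 4.28 (SE 1.94, edgeR adjusted p = 1) turned to -1.88 without library B. Igkv3-7 was the member with the lowest adjusted p in each single agent, in the triple combination and in anti-CD8, against control. It had 0 to 1 counts in those 10 libraries, and that ordering rested on the 34 counts of control A, since control B had 3. The edgeR adjusted p of Igkv3-7 was between 0.766 and 1 in these comparisons.

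Over the 8 groups without anti-CD8, anti-PD-1 was the agent with most members at an unadjusted p under 0.05, all 10 of them higher, among the 22 tested, where 8.77% of all genes had such a p and 5.69% were higher. None passed, the lowest adjusted p being 0.561. The members tested are those with the most counts, and the libraries given anti-PD-1 hold most of the counts, so this number is a description only. Iglv1, a lambda segment, had 3, 11, 5, 12, 17, 17, 12 and 0 counts in the libraries with anti-PD-1 and 8, 2, 1, 0, 1, 2, 2 and 0 in those without. Its log2 difference was 2.63 (SE 0.74, edgeR adjusted p = 0.561).

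Igkv8-21 had a log2 difference of 3.30 (SE 1.11) and Ighv1-82 one of 2.68 (SE 1.02) for anti-PD-1, both with an edgeR adjusted p of 0.561. Leaving out library A of the triple combination took the number with an unadjusted p under 0.05 from 10 to 4, and leaving out library B of anti-PD-1 took it to 6, each with 51 members tested. For anti-CTLA-4 and for APG-157 the members with the lowest adjusted p were Ighv7-3 (0.342) and Ighv10-1 (0.657) by edgeR. In both cases some groups were at 0, so no fold is given. The members at an unadjusted p under 0.05 numbered 3 (10.1% of all genes) and 2 (7.36%). By edgeR, 0 members had an adjusted p under 0.05 in the 3 tests of whether 1 agent's difference depended on another. Members at an unadjusted p under 0.05 there numbered 2 for anti-CTLA-4 by anti-PD-1, where 2.97% of all genes had such a p. They numbered 1 for anti-CTLA-4 by APG-157 (10.1%) and 2 for anti-PD-1 by APG-157 (0.864%).

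By the plain order of the libraries, 56 of the 105 members had both dual blockade libraries above both control libraries, where 16.5% of the 27666 genes with a sum of 10 or more did. The members were chosen by a minimum sum, and these libraries held the most V counts, so the count is not independent of the choice. Both libraries lay above control for 28 members in the CD8-depleted combination (19.4% of genes), for 18 in APG-157 + anti-PD-1 (10.3%), for 13 in anti-PD-1 (13.2%), for 12 in APG-157 + anti-CTLA-4 (23.3%) and for 11 in the triple combination (12.8%). In anti-CTLA-4 and in APG-157 it was 3 members each (15.7% and 7.42% of genes), and in anti-CD8 2 (11.5%). Members below both control libraries numbered 11 in anti-CD8 (18.1%) and 10 in APG-157 (14.2%).

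Among genes that are not V segments, the 8 with levels most like the summed V level over the 20 libraries included 4 antibody genes and 3 genes known from T cells. Spearman's rho was 0.955 for Igkc, the kappa constant region, 0.935 for Jchain, which joins secreted IgA and IgM, 0.929 for Ighg2b and 0.919 for Igha. The 5 highest outside the immunoglobulin genes were Jchain, AC141882.2 (0.919), Lat (0.890), Cd5 (0.887) and Bcl11b (0.884), of which Lat, Cd5 and Bcl11b are the T cell genes. Other genes of the same cell types did not rank with them, with a rho of 0.140 for Trbc2 and 0.526 for Cd8a of T cells, 0.211 for Xbp1 and -0.368 for Sdc1 of plasma cells, and 0.135 for Ms4a1 and -0.0571 for Cd79a of B cells. These are descriptions over 20 libraries that share their scaling. Kappa V counts were 0.251 to 0.689 of the Igkc count of the same library.

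**Figure D5:**
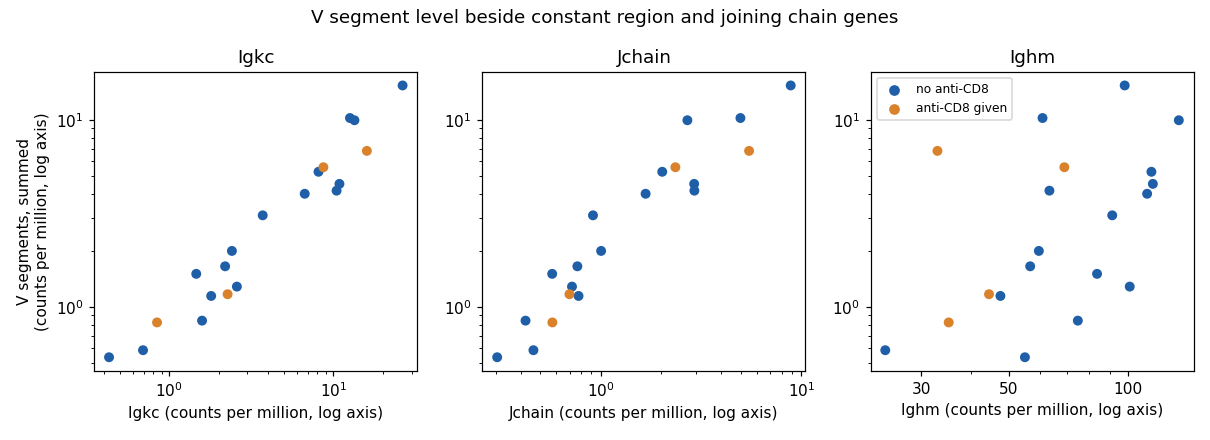
Summed V segment level (y axis, log scale) against Igkc, Jchain and Ighm (x axes, log scale, CPM) in the 20 libraries, with anti-CD8 libraries marked. The points follow Igkc (rho 0.955) and Jchain (0.935) closely and Ighm (0.501) loosely.

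Ighm, the constant region of IgM, was far higher than the heavy V segments, with 1370 to 7463 counts against 7 to 308 heavy V counts. The ratio of heavy V to Ighm counts ran from 0.00226 to 0.0694, with the highest values in dual blockade A (0.0694) and the CD8-depleted combination B (0.0673). The cause of the excess of Ighm was not tested. The gamma constant genes differed between the libraries that shared Igkv3-2: Ighg3 was at 2.71 CPM and Ighg2b at 2.76 in APG-157 + anti-PD-1 B, and at 0.183 and 0.530 in anti-PD-1 B.

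Of the 12 constant region genes listed, 11 were tested and 0 were called for anti-PD-1 by edgeR or DESeq2, with 7 at an unadjusted p under 0.05, all higher, and a median log2 difference of 1.67 against -0.02 over all genes. Igkc had a log2 difference of 1.80 (SE 0.58) and Igha of 1.64 (SE 0.48), both with an edgeR adjusted p of 0.561. Of 14 tested plasma cell genes, 0 were called for anti-PD-1 by either tool, with 1 at an unadjusted p under 0.05, and that 1, Jchain, had a log2 difference of 1.59 (SE 0.42). Sdc1 and Xbp1, on that list, are also used by epithelial cells and had 2289 to 5998 and 5161 to 9537 counts, while Tnfrsf17, a receptor of plasma cells, had 0 to 11. Of 15 tested B cell genes 0 were called for anti-PD-1 by either tool, with 2 at an unadjusted p under 0.05. Rag1 and Rag2, the recombinase that joins the segments, had 0 to 3 and 0 to 5 counts.

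In APG-157 + anti-CTLA-4 against the CD8-depleted combination, where Igkv10-96 was called, edgeR called 6.89% of all genes tested in either direction. Of 14 plasma cell genes 1 was called, near the share over all genes. It was Derl3, of the degradation path for misfolded proteins in the endoplasmic reticulum, lower by 5.20 on the log2 scale (SE 1.47, edgeR adjusted p = 0.0340). Derl3 had 2 and 3 counts against 3 and 150, so the pairs overlapped in CPM and the fall rested on library B of the depleted group, which also held the adipocyte and Epcam counts. Cd79b, a signalling part of the B cell receptor, was the 1 of 15 B cell genes called, also near the share over all genes. It was lower by 3.39 (SE 0.89, edgeR adjusted p = 0.0298), with 13 and 12 counts against 98 and 138. DESeq2 called 2 genes of the first list and 4 of the second there, and 9.9% of all genes. For the germinal center genes, the lymphoid organ genes, the regulators of immunoglobulin genes and the recombination genes, edgeR called 0 in any of the 14 comparisons. Of the 5, 8, 10 and 2 genes tested, up to 3, 3, 7 and 1 had an unadjusted p under 0.05 in a comparison. Over all genes that share ran from 0.618% to 38.3% by comparison, so these highest counts are a description only. DESeq2 called at most 1, among the lymphoid organ genes. Vpreb3, on the list of recombination genes, was not among those tested. It had 1025 counts in library B of the CD8-depleted combination and 0 to 4 in any other library.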

How the data were processed

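Per the labels and the study's methods, the authors extracted tumor RNA, made libraries with a KAPA mRNA kit, trimmed reads with Trimmomatic 0.39, quantified transcripts with Salmon on GENCODE vM27 (GRCm39) and summed them to genes. The processing notes give Salmon 1.5.0. The deposited table holds these estimated counts, not scaled for depth. A deposited table of log2 values, which the authors scaled by size factors, was not used in any result. Estimated counts were rounded. Symbols were matched to 51484 of 54309 gene IDs without their version.

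Levels are counts per 1e6 counts (CPM) of TMM-scaled library totals. edgeR 4.0.16 (R 4.3.3) fitted a robust quasi-likelihood model to the 10 groups and all 20 libraries after filterByExpr, with Benjamini-Hochberg adjustment over 19567 genes. The 14 comparisons were 9 groups against control, 2 further pairs of groups, and the main effect of each agent over the first 8 groups. DESeq2 1.42.0 was an alternative. The methods were tested on simulated data with the same spread for every gene, smaller than the median spread of the V segments tested. That test does not show how well changes in V segments would be found. Shares have Wilson 95% intervals, and ratios exact binomial ones. These and the floor of 3 counts cover counting error only.

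V exon sequences, positions and identities came from GENCODE M21 (GRCm38), a build the authors did not use, and no coordinate of the files was converted. None of the 105 members had the same ID version in both annotations. The named members are the 10 with most counts, the leader of each chain with 100 or more counts in a library, those called or with the lowest adjusted p in each comparison, and those beside the 10-count minimum. The members and gene lists were chosen with earlier results of these data known.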

Additional observations from a re-analysis of the deposited data

Results flagged for a closer look

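Among the 8 libraries given APG-157 in the first 8 groups, library B of APG-157 + anti-PD-1 lay far from the others in summed V segment level, at 9.96 CPM with the next highest at 4.55. Its gap to that library was 0.574 of the whole range. Sets of 8 libraries were compared in this way 18 times, for 3 measures on the 2 sides of each of 3 agents, and 1 set was singled out, where chance would single out about 1 in 20.

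The 243 V rows under the 10-count minimum were not used above, and their counts were also higher in both libraries of several groups than in both control libraries. The control pair held 10 such counts. The pairs of anti-PD-1, APG-157 + anti-PD-1, dual blockade, the triple combination and the CD8-depleted combination held 27, 50, 73, 29 and 42.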

How the results depend on the processing

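The number of members called was computed under every alternative setting, and it was 0 in 185 of 192 alternatives. The single call, Igkv10-96 in APG-157 + anti-CTLA-4 against the CD8-depleted combination, became 0 calls with no low-count filter and with the APG-157 + anti-CTLA-4 pair summed, and 0 to 3 when each library was left out. Its adjusted p ran from 0.00436 (DESeq2) to 0.230 (without library B of the depleted group). With the letter of the library as a replicate block the number stayed at 1 there and 0 elsewhere. The A minus B differences of 45 pairs of groups correlated at -0.34 to 0.66, median 0.01, with 14 over 0.1, so the letters were not taken to pair the libraries. A filter at a mean of 1 CPM left 0 members and gave no value. For the member named in each comparison the direction held in 154 of 155 alternatives, and Igkv3-2 in APG-157 + anti-PD-1 ran from -1.88 (without library B) to 9.36 (without control A) when a library was left out.

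The mean V level of anti-CD8 was 0.625 CPM without each library's leading segment, against 0.997. No other group mean moved beyond its SD under the plain total, RLE factors or without leaders. Leaving out a library gave means of 1.28 to 3.09 CPM in control, 0.538 to 0.844 in APG-157, 1.50 to 5.28 in anti-PD-1, 0.586 to 4.18 in anti-CTLA-4, 4.03 to 9.96 in APG-157 + anti-PD-1, 1.65 to 1.99 in APG-157 + anti-CTLA-4, 10.2 to 15.3 in dual blockade, 1.14 to 4.55 in the triple combination, 0.825 to 1.17 in anti-CD8 and 5.58 to 6.83 in the CD8-depleted combination. The median number of segments detected, 41, became 16 at a minimum of 3 counts and 20.2 at 30 V counts a library.

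Counts of members above control, with alternatives chosen after seeing the data, kept within 1.5 times under the other scalings and unrounded counts. Without each library in turn they ran from 4 to 13 in APG-157, 14 to 40 in anti-PD-1, 4 to 45 in anti-CTLA-4, 23 to 46 in APG-157 + anti-PD-1, 15 to 25 in APG-157 + anti-CTLA-4, 60 to 73 in dual blockade, 13 to 53 in the triple combination, 3 to 10 in anti-CD8 and 30 to 56 in the CD8-depleted combination. The cause of these moves was not tested, beyond the fewer libraries that must agree. The share over all genes was not computed with a library left out, so these ranges are a description only. With 30 to 883 V counts a library, a segment at a few percent of the V counts can be missed by chance alone in the thinner libraries.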
